A study of Mus musculus with 2 samples.

Results

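Alcohol, aldehyde and aldo-keto dehydrogenases are the enzymes that move alcohols, aldehydes and ketones between their oxidation states. They were listed here by name as 37 genes: 5 alcohol dehydrogenases, 17 aldehyde dehydrogenases (ALDH), 11 aldo-keto reductases (AKR) and 4 genes of short-chain enzymes, 3 of them named Dhrs and 1 Dcxr. Of these, 35 of the 18194 genes named on the array could be read, and 27 had a signal intensity above 500 in at least 1 pool, a level that 5076 genes of the array reached. Such genes are called measured below. Akr1b3 and Akr1b7 were not analysed here. Liver RNA of 3 FLS mice, an inbred strain used as the model of nonalcoholic steatohepatitis, was pooled on 1 array. Liver RNA of 3 DS mice, the inbred strain used as reference and as the model of simple steatosis, was pooled on the other. The DS livers are thus no healthy control, since fat vacuoles were described in livers of both strains. The ratios set a model of steatohepatitis against a model of steatosis. Not every FLS liver examined had steatohepatitis and not every DS liver was fatty, and the histology of the pooled livers is not given. FLS mice stem from the C line and DS mice from the A line of outbred ddN mice, so the pools differ in the whole strain background and not in a single allele. All mice were 19 weeks of age, ate the same standard pellet diet and carried no engineered allele or drug treatment that the labels name. With 1 array per strain, the differences have no replicate check and no p-value, and pooling leaves out the spread between mice. Ratios are FLS/DS ratios of the signals.

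In hepatocytes, alcohol dehydrogenases oxidize alcohols to aldehydes and aldehyde dehydrogenases oxidize these to acids, both with NAD or NADP as the acceptor. Aldo-keto reductases and short-chain enzymes mostly run the other way and reduce aldehydes and ketones of sugars, steroids, retinoids and lipid peroxidation products to alcohols. The liver is the main site of ethanol and acetaldehyde oxidation and uses several ALDH enzymes to finish the breakdown of amino acids and of fatty aldehydes.

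The labelled tissue was borne out by its markers. Of 10 hepatocyte markers, 8 could be read and all were measured, with ratios between 1.01 and 1.35 and a summed signal of 151869 in FLS livers, against 145931 in DS livers. The 8 stellate cell markers, 4 of them measured, summed to 11676 in FLS and 7897 in DS livers, with ratios from 0.88 to 2.78. The 7 markers of Kupffer cells and macrophages, 5 of them measured, summed to 4439.8 in FLS and 5823 in DS livers, with ratios from 0.554 to 1.26. The 5 endothelial markers summed to 5223 in FLS livers, against 4756 for DS. None of 5 cholangiocyte, 5 neutrophil and 6 T and NK cell markers exceeded 500 in either pool, and no marker was at 0. Between these low signals, the ratios ran from 0.861 to 2.6 for cholangiocyte and from 0.63 to 1.05 for neutrophil markers. For T and NK cell markers they ran from 0.895 to 1.06. The part of these cell types in the differences below was not tested, and in bulk tissue fewer cells of a type and less RNA per cell cannot be told apart. The median signal was 120.3 in FLS livers, against 125.2 in DS livers. Actb had a ratio of 0.867.

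Most of the 27 measured genes had nearly equal signals in FLS and DS livers, while 3 had an at least 2-fold lower FLS signal and none an at least 2-fold higher one. The 3 lower genes were Akr1c19, Aldh18a1 and Aldh3a2. Akr1c19 and Aldh18a1 exceeded 500 in DS livers alone, and with both pools required to exceed 500 the number was 1 of 25, Aldh3a2. The share of all genes under that stricter limit was not computed. The share of all measured genes at least 2-fold lower was 1.77%, the share at least 2-fold higher was 2.29%, and both together made 4.06%. Whether 3 of 27 departs from these shares was not tested. Aldh1b1 was the only listed gene at least 1.5-fold higher, a limit that 6.11% of all measured genes reached. The same 3 genes were the ones at least 1.5-fold lower, against 4.49% of all measured genes. The lower signal was at least 80% of the higher one for 19 of 27 genes (70.4%), which is close to the 71.3% of all measured genes. Among genes above 2000 in either pool, these shares were 73.9% (17 of 23) and 73.1%. The median log2 ratio was -0.034 over the 27 genes and 0.04 over all measured genes, with 13 ratios above 1 and 14 below.

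**Figure D1:**
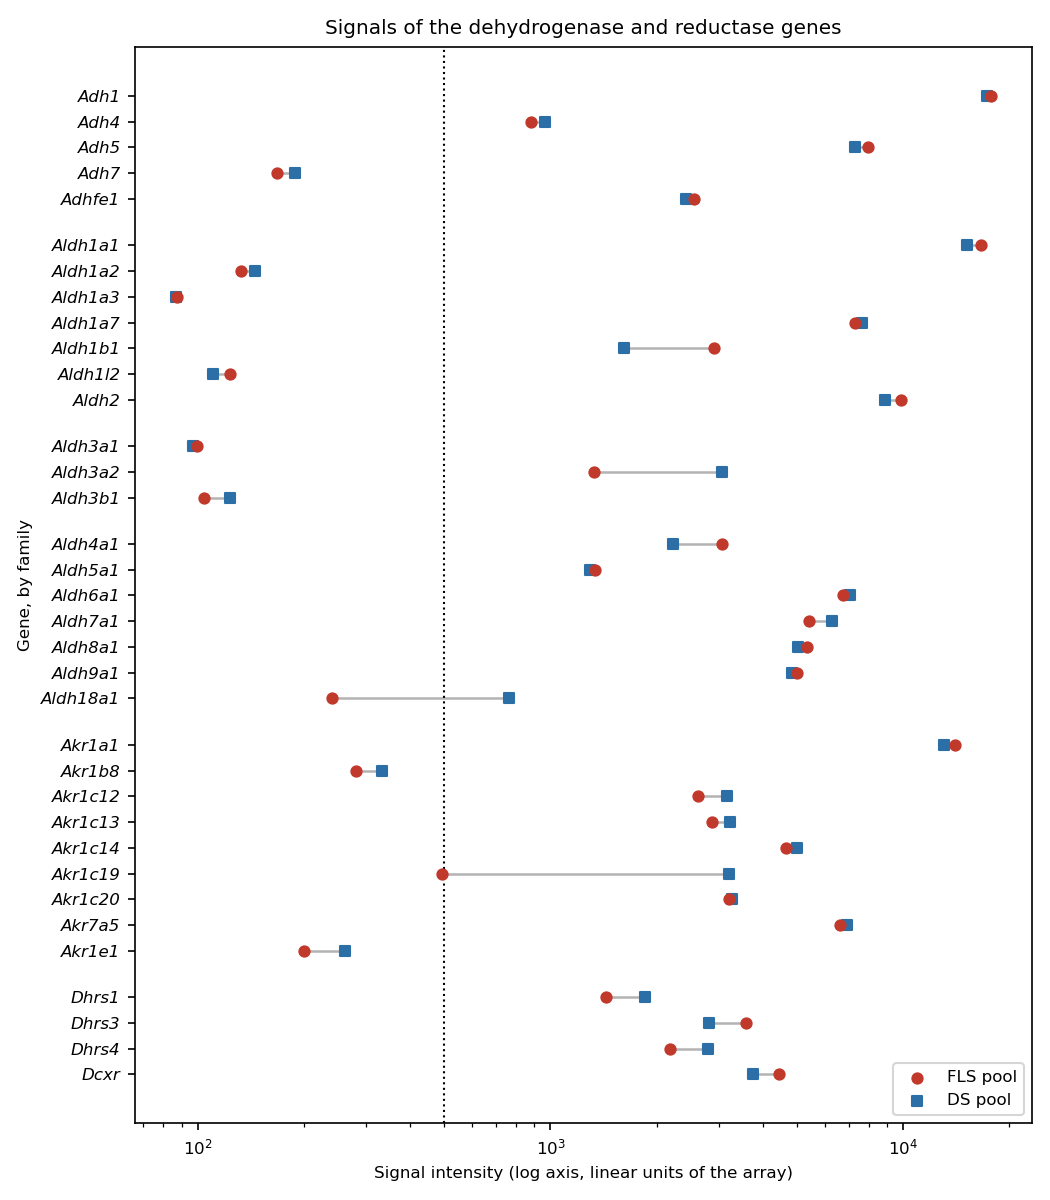
Signal intensity (log axis) of 35 dehydrogenase and reductase genes in FLS livers (circles) and DS livers (squares), each read on 1 array, grouped by enzyme family, with a dotted line at 500. The widest gaps are those of Akr1c19, with 492.8 in FLS and 3199 in DS livers, Aldh18a1 and Aldh3a2, with the FLS signal on the left, and Aldh1b1, with the FLS signal on the right.

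Akr1c19 showed the largest difference of the 27 genes. It encodes a mouse aldo-keto reductase of the AKR1C group, enzymes that interconvert ketone and hydroxyl groups of steroids and foreign compounds. Its signal was 492.8 in FLS livers, against 3199 in DS livers, a ratio of 0.154. This was the 12th lowest ratio among the 5076 measured genes. The FLS signal stood at percentile 83.4 of the array and the DS signal at 96.9, so both lay above the bulk of the probe sets. The gene has a single probe set, and no second reading was at hand. Whether the strains differ in sequence under the probes was not examined for this or any other listed gene.

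The Akr1c genes lie side by side on chromosome 13, and Akr1c19 differed from the genes on both sides of it. In the order of the RefSeq genes (assembly GRCm38.p6) it stands between Akr1c13 and Akr1c12. Akr1c13 had a signal of 2869 in FLS livers, against 3229 in DS livers, a ratio of 0.889. Akr1c12 had 2623 in FLS livers, against 3162 in DS livers, a ratio of 0.829. The other measured genes of the cluster were also near equality. Akr1c14, which encodes a hydroxysteroid dehydrogenase, had a ratio of 0.929, Akr1c6 of 1.02 and Akr1c20 of 0.977. Akr1c20 has a second probe set with a signal of 643 in FLS livers, against 377 in DS livers, a ratio of 1.71, so its probe sets disagreed. Akr1c18, Akr1c21 and Akr1e1 stayed below 500 in both pools. The AKR1C genes are close paralogs, and their probe sequences were not used here, so some of their signal may be shared. A single probe set annotated to more than 1 of the listed genes was left out.

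**Figure D2:**
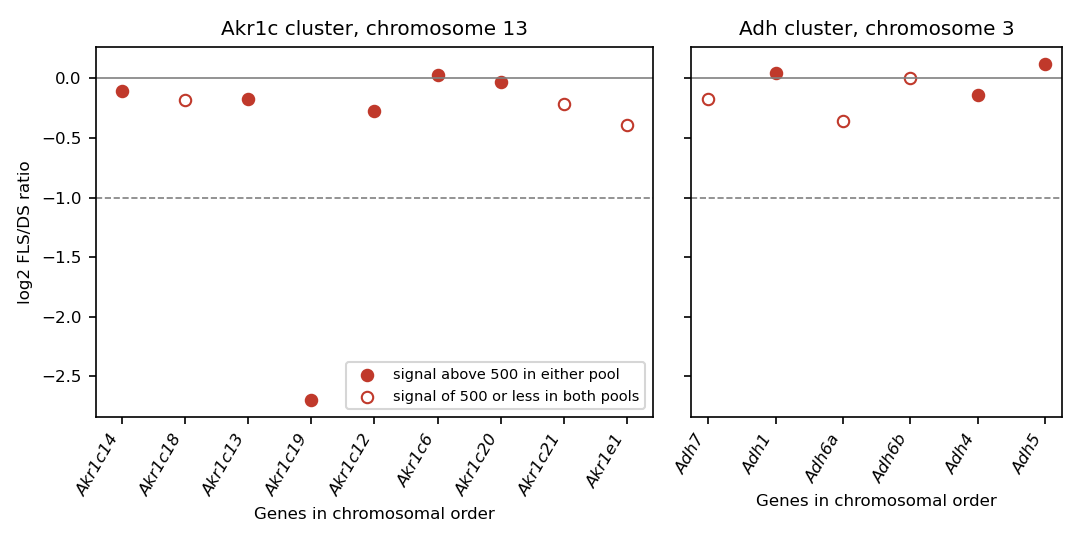
log2 FLS/DS ratio of the genes of the Akr1c cluster on chromosome 13 and of the Adh cluster on chromosome 3, in chromosomal order, with filled points for genes above 500 in either pool and open points for the others. Akr1c19 lies at -2.70, below the dashed line of a 2-fold difference, while its neighbours Akr1c13 and Akr1c12 lie at -0.17 and -0.27.

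The 250 bases before the RefSeq start of Akr1c19 and of its neighbours are shown because these genes adjoin each other and differed in ratio. They are of the mouse reference genome (GRCm38.p6), not of FLS or DS mice, read 5′ to 3′ on the strand of each gene. Each capital letter belongs to a stretch of 8 letters that occurs in all 3 windows. Overlapping stretches were merged, so a longer capital run need not occur whole in the other windows.
Akr1c19 (chr13:4233490-4233739, plus strand): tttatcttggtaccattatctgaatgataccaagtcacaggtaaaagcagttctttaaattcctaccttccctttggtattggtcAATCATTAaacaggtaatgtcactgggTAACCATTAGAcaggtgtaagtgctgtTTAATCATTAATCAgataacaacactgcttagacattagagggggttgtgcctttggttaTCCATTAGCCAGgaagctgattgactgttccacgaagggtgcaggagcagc
Akr1c13 (chr13:4190937-4191186, plus strand): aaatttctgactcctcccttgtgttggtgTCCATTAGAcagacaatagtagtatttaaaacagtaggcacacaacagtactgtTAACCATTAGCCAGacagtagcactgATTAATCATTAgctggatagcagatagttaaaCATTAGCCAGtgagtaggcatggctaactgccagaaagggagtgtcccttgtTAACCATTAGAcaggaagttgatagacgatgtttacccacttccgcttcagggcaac
Akr1c12 (chr13:4279400-4279649, minus strand): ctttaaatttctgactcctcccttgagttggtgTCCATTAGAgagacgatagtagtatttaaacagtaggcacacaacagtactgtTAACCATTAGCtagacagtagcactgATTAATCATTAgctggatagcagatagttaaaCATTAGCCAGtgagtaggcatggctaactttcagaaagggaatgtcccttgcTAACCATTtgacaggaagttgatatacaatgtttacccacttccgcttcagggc

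The window of Akr1c19 shared 59.0% of aligned positions with that of Akr1c13 and 56.2% with that of Akr1c12, whereas Akr1c13 and Akr1c12 shared 92.5% with each other. The same alignment of these windows with those of Aldh3a2, Aldh18a1 and Aldh1b1 gave 42.3% to 48.1%. The windows of the other Akr1c genes were not compared, and a link between upstream letters and ratios was not tested. These identities describe the reference genome and say nothing of what sets the signals.

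Aldh18a1 followed with a ratio of 0.315. The enzyme makes pyrroline carboxylate from glutamate, the first part of proline and ornithine synthesis. Its brightest probe set had a signal of 240.0 in FLS livers, against 762 in DS livers, the 33rd lowest ratio among measured genes. The FLS signal stood at percentile 71.6 of the array. The other 4 probe sets of the gene did not show the difference. The brightest of them had 274 in FLS livers, against 304 in DS livers, a ratio of 0.901, and the remaining 3 had signals of 63.0 to 79.2 in FLS livers and 63.4 to 82.8 in DS livers, below the array medians. The median over all 5 probe sets was -0.065 on the log2 scale, so the low ratio of Aldh18a1 rests on 1 probe set. With 762 in the DS pool, Aldh18a1 was also the listed gene that exceeded the limit of 500 by least, followed by Adh4 with 965, and Akr1b8, with 333 in the DS pool, came nearest from below.

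Besides Aldh18a1, whose low ratio rests on 1 probe set, Aldh4a1, Oat and Prodh were read among the genes of pyrroline carboxylate metabolism. These had ratios above 1. Aldh4a1, which oxidizes it back to glutamate, had a signal of 3069.9 in FLS livers, against 2225 in DS livers, a ratio of 1.38 and the highest of the ALDH genes outside the ALDH1 to ALDH3 groups. Oat, which forms it from ornithine, had 11562 in FLS livers, against 6663 in DS livers, a ratio of 1.74. Prodh, which forms it from proline, had a ratio of 1.16. Oat and Prodh were picked with their values already seen. Of all 5076 measured genes, 2861 had ratios above 1, and a joint change of the genes named here was not tested.

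Aldh3a2 encodes the fatty aldehyde dehydrogenase of microsomes and peroxisomes, which oxidizes long-chain aldehydes from fatty alcohols, ether lipids and phytol. Its signal was 1325 in FLS livers, against 3063 in DS livers, a ratio of 0.432 and the 72nd lowest among measured genes. It has 1 probe set, and both signals were well above 500. It was the single measured gene of the ALDH3 group. Aldh3a1, an enzyme of cornea and stomach that can be induced in the liver, had 99.8 in FLS livers, against 96.8 in DS livers, and Aldh3b1 had 104 in FLS livers and 124 in DS livers, all below the array medians.

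The windows of 250 bases before Aldh3a2 and Aldh18a1 were searched on both strands for the cores of the antioxidant response element (TGACNNNGC) and the xenobiotic response element (GCGTG) and for the nuclear receptor half-site AGGTCA, whose reverse complement shares the letters TGAC with the antioxidant core. They are shown because these are the other genes with a 2-fold lower signal. Capitals mark the xenobiotic core or its reverse complement.
Aldh3a2 (chr11:61267187-61267436, minus strand): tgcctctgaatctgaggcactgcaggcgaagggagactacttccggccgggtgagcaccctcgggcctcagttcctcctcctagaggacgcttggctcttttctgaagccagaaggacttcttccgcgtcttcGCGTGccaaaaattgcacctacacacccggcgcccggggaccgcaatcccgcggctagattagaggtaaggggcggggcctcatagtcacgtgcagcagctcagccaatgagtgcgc
Aldh18a1 (chr19:40588464-40588713, minus strand): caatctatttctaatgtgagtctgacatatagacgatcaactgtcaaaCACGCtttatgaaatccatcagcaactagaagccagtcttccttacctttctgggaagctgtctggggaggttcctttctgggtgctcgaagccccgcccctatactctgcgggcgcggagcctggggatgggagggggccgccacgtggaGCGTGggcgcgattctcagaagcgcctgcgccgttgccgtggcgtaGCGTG

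GCGTG occurred once before Aldh3a2 and 3 times before Aldh18a1, and in none of the windows of Akr1c19, Akr1c13, Akr1c12 and Aldh1b1. These letters are common, and 28.2% of 32851 RefSeq windows hold them. The 28 listed genes with a window had 33 windows, of which 8 held GCGTG. TGACNNNGC was found in 2 of the 33 windows, against 10.2% of all windows. AGGTCA was found in 4 of the 33, against 14.0%, but neither occurred before any of the 6 genes named here. A match is not evidence of binding.

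Among the genes of the ALDH1 and ALDH2 groups, Aldh1b1 stood apart. Its enzyme works in mitochondria on acetaldehyde and retinal. The signal was 2912 in FLS livers, against 1617 in DS livers, a ratio of 1.80 that ranked 154 from the top of the measured genes. It has 1 probe set. Over the deposited scaling and 4 others, the ratio ran from 1.78 to 2.08, and it passed 2 only after division by Actb. Akr1c19, Aldh18a1 and Aldh3a2 stayed at least 2-fold lower under each of these scalings, with highest ratios of 0.178 for Akr1c19, 0.363 for Aldh18a1 and 0.499 for Aldh3a2.

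**Figure D3:**
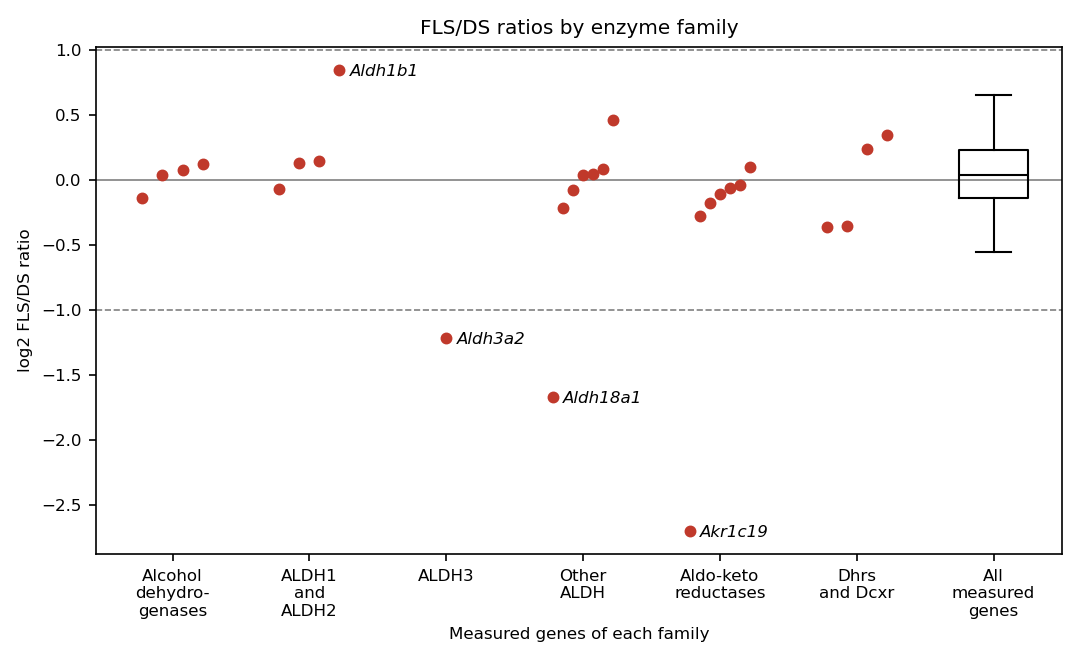
log2 FLS/DS ratio of the 27 measured genes by enzyme family, 1 point per gene, beside all 5076 measured genes (box: median and quartiles, whiskers: percentiles 5 and 95), with dashed lines at a 2-fold difference. Akr1c19, Aldh18a1 and Aldh3a2 lie below the lower dashed line and Aldh1b1 lies at 0.85, while the remaining points lie between 0.779-fold and 1.38-fold.

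The genes of ethanol oxidation had near equal signals in both strains. Adh1, the class I enzyme that carries most hepatic ethanol oxidation, had a signal of 17762 in FLS livers, against 17241 in DS livers, a ratio of 1.03. Adh5, the formaldehyde and nitrosoglutathione enzyme, had 7949 in FLS livers, against 7299 in DS livers, the highest ratio of the measured alcohol dehydrogenases at 1.09. Adh4, a class II enzyme, had 879 in FLS livers, against 965 in DS livers, the lowest ratio among the 4 that were measured at 0.911. Adhfe1, which oxidizes hydroxybutyrate, had ratios of 1.06 and 1.10 on its 2 brighter probe sets. Adh7, the class IV enzyme of the stomach, had 168 in FLS livers and 189 in DS livers and so did not exceed 500. The median log2 ratio of the 4 measured alcohol dehydrogenases was 0.063.

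Aldh2, the main mitochondrial acetaldehyde dehydrogenase, had 9874 in FLS livers, against 8893 in DS livers on its brightest probe set, a ratio of 1.11. Its 4 further probe sets disagreed with each other. Among the 3 above 500 the ratios were 0.934, 0.883 and 2.27, and the probe set with 2.27 had a signal of 825 in FLS livers, against 363 in DS livers. Aldh1a1, a cytosolic enzyme for retinal and acetaldehyde, had 16614 in FLS livers, against 15149.8 in DS livers, a ratio of 1.10. Its neighbour on chromosome 19, the close paralog Aldh1a7, had 7320 in FLS livers and 7653 in DS livers, the lowest ratio of the 4 measured genes of this group at 0.957. The signals of Aldh1a2 and Aldh1a3, which make retinoic acid mainly outside hepatocytes, and of the mitochondrial folate enzyme Aldh1l2 were 133 or less in the FLS pool and 145 or less in the DS pool. Outside the list, Cyp2e1 and Cat, the other routes of ethanol oxidation, had ratios of 1.06 and 0.984, and Acss2, which activates acetate, of 1.13.

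The ALDH enzymes of amino acid and carnitine metabolism were close to equality except for Aldh18a1 and Aldh4a1. Aldh5a1 (succinic semialdehyde from GABA) had a ratio of 1.04, Aldh6a1 (valine) of 0.953 and Aldh7a1 (lysine) of 0.863. Aldh8a1 (kynurenine) had 1.06 and Aldh9a1 (carnitine synthesis) 1.03. Where these had a second probe set above 500, it gave 0.947 for Aldh8a1 and 0.972 for Aldh9a1. In a list of 19 genes that encode neighbouring steps of these routes, 15 were measured, and none reached 2-fold. The lower signal was at least 80% of the higher one for 14 of them, and Oat was the exception. Of all measured genes, 71.3% met this 80% limit and 4.06% reached 2-fold in either direction. Whether the list departs from these shares was not tested.

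**Figure D4:**
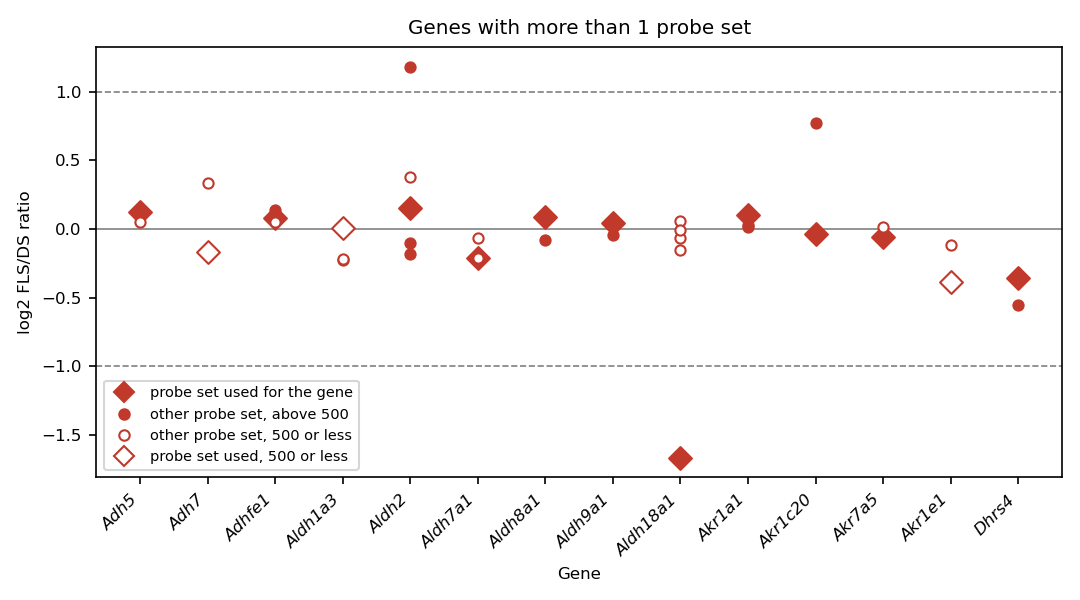
log2 FLS/DS ratio of each probe set of the 14 genes with more than 1, with diamonds for the probe set used for the gene, circles for the others, and open symbols for signals of 500 or less in both pools. The probe sets of Aldh18a1, Aldh2 and Akr1c20 spread most, and those of Akr1a1 and Aldh9a1 lie close together.

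Across the 14 genes with more than 1 probe set, 12 further probe sets of measured genes exceeded 500, of which 9 met the 80% limit given above. The other 3 belonged to Aldh2, Akr1c20 and Dhrs4.

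Outside the Akr1c cluster, the measured aldo-keto reductases Akr1a1 and Akr7a5 both met the 80% limit. Akr1a1, the aldehyde reductase that turns glucuronate into gulonate on the way to ascorbate, had 14017 in FLS livers, against 13051 in DS livers, a ratio of 1.07 and the highest of its family. Its 3 other probe sets had ratios of 1.01 to 1.07. Akr7a5, a reductase of dialdehydes and succinic semialdehyde, had 0.960 and 0.958 on its 2 brighter probe sets. Akr1b8, which reduces lipid-derived aldehydes, had 281 in FLS livers, against 333 in DS livers, both below the limit of 500. The anhydrofructose reductase gene Akr1e1, at the end of the Akr1c cluster, had 201 in FLS livers, against 262 in DS livers, a ratio of 0.765 between signals below the limit of 500. Of the 7 measured aldo-keto reductases, 6 had ratios below 1 and Akr1a1 above 1, with a median log2 ratio of -0.11. Of all 5076 measured genes, 2215 had ratios below 1 and 2861 above, with a median of 0.04. These signs depend on the scaling, since division by Actb put Akr1c13, Akr1c14, Akr1c20 and Akr7a5 above 1, as it did Adh4, Aldh1a7 and Aldh6a1.

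The short-chain enzymes split in 2 pairs. Dhrs3, which reduces retinal to retinol, had 3586 in FLS livers, against 2819 in DS livers, their highest ratio at 1.27. Dcxr, a reductase of xylulose and dicarbonyls, had 4442 in FLS livers, against 3753 in DS livers, a ratio of 1.18. Dhrs1 had 1442 in FLS livers, against 1851 in DS livers, their lowest ratio at 0.779. Dhrs4, a peroxisomal reductase of retinal and other carbonyls, had 2189 in FLS livers, against 2798 in DS livers, a ratio of 0.782, and 0.681 on its second probe set. Only Dcxr met the 80% limit, and all 4 were within 1.5-fold.

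Genes of the steps next to these enzymes, of the same superfamilies and of NRF2 targets were read from 7 lists. None of the measured genes on 6 of them reached a 2-fold difference. These 6 lists held 3 to 15 measured genes each, and 4.06% of all measured genes reached 2-fold in either direction. Whether lists this short depart from that share was not tested. In retinoid handling, 7 of 16 genes were measured and the median log2 ratio was 0.019. Cyp26a1, which breaks down retinoic acid, had 1416 in FLS livers, against 861 in DS livers, a ratio of 1.65. In the polyol and glucuronate routes, Gulo, the last enzyme of ascorbate synthesis after Akr1a1, had a ratio of 1.73, Xylb, which follows Dcxr, of 1.65, and Khk, the fructose kinase, of 0.612. Steroid and bile acid genes had ratios from 0.631 for Hsd17b6 to 1.52 for Hsd17b2 over 10 measured genes, with the bile acid reductase gene Akr1d1 at 1.38. Of 9 measured genes of the same superfamilies outside the list of 37, the ratios ran from 0.609 for Dhrs7b to 1.40 for Cbr1.

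Targets of NRF2, the transcription factor of the antioxidant response, formed the seventh list, since Akr1b8 and Aldh3a1 are often counted among such targets. Of its 22 genes, 20 could be read and 15 were measured. Of the 15, Gstm2, Abcc3 and Gstm3 had at least 2-fold higher signals and Me1 an at least 2-fold lower one. The shares of all measured genes past these limits were 2.29% higher and 1.77% lower. Whether the list departs from these shares was not tested. The median log2 ratio was 0.57, where all measured genes had 0.04. Hmox1, Slc7a11, Abcc4, Cbr3 and Nqo1 did not exceed 500 in either pool. Their ratios were 0.766, 0.931, 1.01, 1.1 and 1.7. Of the 15 genes, 12 had ratios above 1 and 3 below, namely Me1, Ephx1 at 0.809 and Gclm at 0.915. Of all 5076 measured genes, 2861 had ratios above 1 and 2215 below. Gstm1, Gstm2, Gstm3 and Gstm4 are all on the list, and some of their signal may be shared. Gstm2, a glutathione transferase gene, had 2156 in FLS livers, against 903 in DS livers, a ratio of 2.39. Gstm3, of the same enzyme class, had 10471 in FLS livers, against 5217 in DS livers, a ratio of 2.01. Abcc3, an export pump of conjugates, had 4819 in FLS livers, against 2249 in DS livers, a ratio of 2.14. Me1, the cytosolic malic enzyme, had 268 in FLS livers, against 3159.5 in DS livers, a ratio of 0.085. Akr1b8 and Aldh3a1 did not exceed 500 in either pool, so their signals say little about this list.

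**Figure D5:**
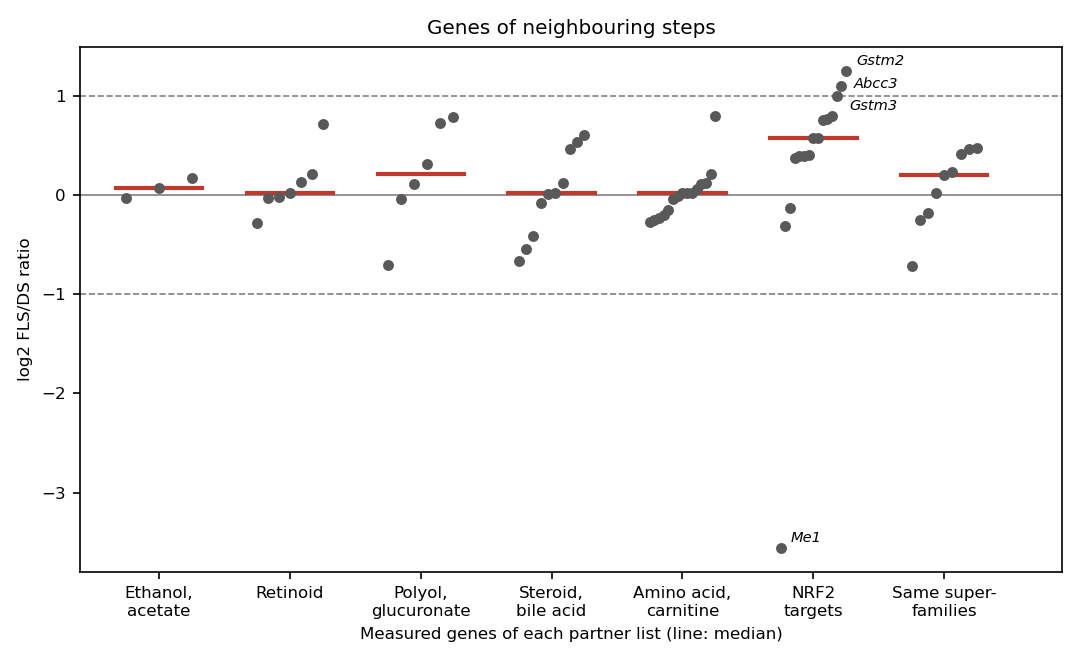
log2 FLS/DS ratio of the measured genes of 7 lists, which hold neighbouring steps, NRF2 targets and genes of the same superfamilies. Each list has 1 point per gene, with the list median as a line and dashed lines at a 2-fold difference. Akr1c6 and Akr1d1 are on both the steroid and the superfamily list. Points beyond the dashed lines belong to the NRF2 targets, whose median is 0.57, while the medians of the other lists lie between 0.018 and 0.22.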

How the data were processed

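Hepatic messenger RNA from single pools of 3 FLS and 3 DS mice was hybridized to 1 Affymetrix mouse genome array each. The authors normalized the arrays and summarized the perfect-match probes by the MBEI (PM-only) model, and the deposited signal intensities are linear. The submitters' notes name affy. The sources used here do not give the scaling between arrays.

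Of 45101 probe sets, 34958 had 1 gene symbol, 932 several and 9211 none in the platform annotation. For 34754 of those with 1 symbol, the current RefSeq symbol was taken by Entrez number, whether or not it differed. Each gene was read from its brightest probe set by mean signal, and fold limits of 2 and 1.5 were applied above a signal of 500. Every listed gene is accounted for, and those past 1.5-fold and the highest and lowest of each family are given with both signals. Of neighbouring genes, those past 2-fold were to be named, and the others given were chosen with their values already seen. The genes and lists were chosen with earlier results of these data known. Promoter windows are from RefSeq (GRCm38.p6) and were aligned globally. The only samples are single pools, so their number limits the precision and no test was made.

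Alternatives were quantile normalization, median centring, loess (fraction 0.4), division by Actb, an offset of 50, the median over probe sets, omission of probe sets ending in _x_at or _s_at, signal limits of 200, 1000 or none, 500 in both pools, and fold limits of 1.5 and 3. A log2 ratio was taken to move at 0.22, which is the SD among a gene's probe sets pooled over 1424 genes, and a median at that SD over the square root of 27. The calculations were tested on simulated data. The tools were Biopython 1.88, matplotlib 3.10.9, statsmodels 0.14.6, pandas 2.3.3 and numpy 2.4.6 under Python 3.11.15. Protein sequences were not used here.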

Additional observations from a re-analysis of the deposited data

How the results depend on the processing

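The number of genes at least 2-fold lower in FLS livers was 3 under all 4 other scalings, an offset of 50, omission of _x_at and _s_at probe sets, a signal limit of 200 or none and a fold limit of 1.5. It was 2 at a fold limit of 3, which leaves out Aldh3a2, and 2 with the median over probe sets and 2 above a signal of 1000, which leave out Aldh18a1. Where both pools had to exceed 500 it was 1, since the FLS signals of Akr1c19 and Aldh18a1 lie below 500. Apart from the fold limit of 1.5, the shares of all genes under these alternatives were not computed. The number at least 2-fold higher, 0 as deposited, was 1 after division by Actb and 1 at a limit of 1.5, in both cases Aldh1b1. The median log2 ratio of -0.034 was 0.015 under quantile normalization, 0.17 after division by Actb, 0.043 above 1000 and 0.043 with both pools above 500. Division by Actb shifts all log2 ratios by 0.21, and the median of all measured genes then was 0.26. Of 189 gene values under the alternatives, 2 moved by more than 0.22, both with the median over probe sets. These were Aldh18a1, at -0.065, and Akr1c20, at 0.37. Median centring and division by Actb shift every log2 ratio alike by less than 0.22, so neither could move a gene. A gene with 1 probe set could not change with the median over probe sets. The count of 2 in 189 is therefore no measure of stability. No ratio past 2-fold changed direction. No paired analysis was possible because each strain has 1 pooled sample, and for the same reason no sample could be left out.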
